A study of Mus musculus with 8 samples.

Results

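Leukotrienes are lipid mediators made from arachidonic acid in a short chain of enzymes. Arachidonate 5-lipoxygenase, encoded by Alox5, works together with its membrane-bound activating protein FLAP, encoded by Alox5ap, to form the unstable intermediate leukotriene A4. The hydrolase encoded by Lta4h turns this intermediate into leukotriene B4, a chemoattractant of leukocytes, whereas the synthase encoded by Ltc4s conjugates it with glutathione to leukotriene C4, the first of the cysteinyl leukotrienes, which are sensed by the receptor encoded by Cysltr1. Ephx2 encodes soluble epoxide hydrolase, which opens the epoxides of arachidonic acid made by cytochrome P450 enzymes. In the body, 5-lipoxygenase and FLAP are known chiefly from cells of the myeloid lineage, and soluble epoxide hydrolase in brain is known from glia and neurons.

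These 6 genes were chosen by name from 54532 genes listed in the RNA-seq table of PTS + RS and RS libraries, and all 6 were also among the 28229 genes listed in the table of RGFP109 and vehicle libraries. All 6 had enough counts to be tested in both tables. The 8 libraries were made from brain tissue of male C57BL/6 mice labelled Day 21, with 2 libraries in each of 4 groups. RS mice underwent restraint stress alone. PTS + RS mice underwent photothrombotic stroke, in which light shone through the skull clots cortical vessels after injection of Rose Bengal, and then the same restraint. The other libraries came from PTS + RS mice given RGFP109, or given the vehicle, which is labelled NaCl, so that all 8 libraries came from restrained mice. RGFP109 is labelled an HDAC3 inhibitor, and the study describes it as selective for the histone deacetylases HDAC1 and HDAC3. By the study's methods it was given at 60 mg/kg subcutaneously once a day for 2 weeks. A figure caption of the study instead gives 21 consecutive days of dosing, ending after Day 21. How much dosing the mice of these libraries had received is therefore not clear. The mice are described by weight, and those of the behavioural tests as around 3 months old; no age is stated for these libraries in particular. Tissue was labelled cortex in every PTS + RS and RS library and in replicate 1 of RGFP109 and vehicle, and amygdala in replicate 2 of RGFP109 and vehicle. How many mice entered a library is not given in the sources used here, and p-values measure the spread between these libraries, which may be technical.

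The libraries held 15902013 to 21712033 counts, and the replicates of each group differed beyond sampling noise. The cortical neuron gene Slc17a7 was abundant in all of them, at 973 to 1505 CPM, and the cerebral cortex list summed to 535 to 972 CPM. The highest sums of that list, 972 and 864 CPM, were in the amygdala-labelled libraries, against 535 to 695 CPM in the cortex-labelled ones. Several libraries stood apart in genes of other brain regions. The olfactory bulb markers summed to 1450 CPM (counts scaled to library size) in vehicle replicate 1 and to between 41.3 and 55.0 CPM in the other libraries. Striatal markers summed to 1740 and 1910 CPM in the amygdala-labelled libraries of RGFP109 and vehicle and to 316 to 414 CPM elsewhere, whereas the amygdala markers were no higher there, at 448 and 502 CPM, than in the cortex-labelled libraries, at 401 to 574 CPM. Choroid plexus markers split the PTS + RS group, with 2500 CPM in replicate 1 and 221 CPM in replicate 2, and likewise the RGFP109 group. They were at 2770 and 5610 CPM in the RS libraries.

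Per length of transcript, the pathway was uneven. By the median of the deposited FPKM over 8 libraries, Ephx2 (ENSMUSG00000022040) was highest at 6.07 FPKM, followed by Lta4h (ENSMUSG00000015889) at 5.75 FPKM. Their ranges over the libraries overlapped, at 4.25 to 8.69 FPKM and 5.11 to 8.12 FPKM. Ltc4s (ENSMUSG00000020377) came next at 2.23 FPKM and Alox5ap (ENSMUSG00000060063) at 1.23 FPKM, again with overlapping ranges. Alox5 (ENSMUSG00000025701) at 0.321 FPKM and the receptor gene Cysltr1 (ENSMUSG00000052821) at 0.196 FPKM were lowest. In counts, which do not allow for length, Alox5, Alox5ap, Ltc4s and Cysltr1 were all sampled by few reads. Counts per library were 15 to 60 for Alox5, 16 to 63 for Alox5ap, 20 to 62 for Ltc4s and 7 to 62 for Cysltr1. Lta4h had 496 to 881 and Ephx2 had 168 to 384.

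The genes lie on separate chromosomes of the GRCm38 build: Alox5 on the minus strand of chr6:116410077-116461178, Alox5ap on the plus strand of chr5:149264767-149288153, Lta4h on the plus strand of chr10:93453411-93484875, Ltc4s on the minus strand of chr11:50236461-50238616, Cysltr1 on the minus strand of chrX:106574346-106603679 and Ephx2 on the minus strand of chr14:66084374-66124500. All are protein-coding. An expressed gene overlaps Alox5ap, Ltc4s and Cysltr1 on the opposite strand, namely Gm19719, Gm26542 and Gm5127, with at most 14, 15 and 9 counts in a library. The strand setting of the counting is not given in the sources used here, so reads of such pairs could not be told apart.

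RefSeq promoters on GRCm38.p6 were at hand for 3 members, Alox5, Lta4h and Ltc4s. Those of Alox5 and Lta4h are shown because these genes encode the enzymes of leukotriene B4 synthesis and had unlike fold changes between the PTS + RS and RS libraries. Each is the 250 bases before the start, with matches on either strand to GAGGAA (the core of sites for PU.1, a transcription factor of myeloid cells) and to GGGCGG (the GC box) in capitals. The Alox5 stretch is chr6:116461179-116461428, minus strand, and that of Lta4h is chr10:93453146-93453395, plus strand. The first bases after the Lta4h start were not found in a GENCODE transcript of the gene, unlike those of Alox5 and Ltc4s. The Lta4h stretch also ends before the listed start of the gene.
Alox5: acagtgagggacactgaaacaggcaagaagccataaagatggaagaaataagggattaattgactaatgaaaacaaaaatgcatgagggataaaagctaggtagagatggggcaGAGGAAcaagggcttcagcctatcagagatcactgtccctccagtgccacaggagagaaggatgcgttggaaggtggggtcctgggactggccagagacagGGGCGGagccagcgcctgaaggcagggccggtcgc
Lta4h: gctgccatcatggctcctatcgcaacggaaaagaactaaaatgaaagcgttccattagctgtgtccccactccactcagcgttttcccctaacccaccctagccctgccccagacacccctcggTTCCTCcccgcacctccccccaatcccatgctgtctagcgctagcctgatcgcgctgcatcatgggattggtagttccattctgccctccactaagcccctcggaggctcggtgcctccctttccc

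The Alox5 stretch held GAGGAA once on its own strand, beginning 136 bases before the start, and GGGCGG once, beginning 35 bases before it. The Lta4h stretch held GAGGAA once, on the opposite strand, and no GC box. The Ltc4s stretch, chr11:50238533-50238782, minus strand, reached into the listed gene and held none of the motifs searched. Over 32851 promoters of the same length, 23.3% held GAGGAA, 32.7% held GGGCGG, 4.46% held the AP-1 site TGAGTCA and 7.25% held the NF-kB consensus, and neither of the last motifs occurred in the 3 members. These matches are a description of letters and were not measured as binding.

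To ask what photothrombotic stroke added to restraint stress, the 2 PTS + RS libraries were compared with the 2 RS libraries. The genes of leukotriene A4 synthesis and the cysteinyl leukotriene receptor gene had higher levels in both PTS + RS libraries than in both RS libraries, as had Ephx2. The genes of the later enzymes, Lta4h and Ltc4s, overlapped between the groups. None of the 6 members passed the test, the quasi-likelihood test of edgeR at a Benjamini-Hochberg adjusted p under 0.05 among 17581 genes. In that comparison 3.55% of all genes passed in either direction and 2.96% were called higher. On simulated counts of this comparison the share of false calls was above the nominal one. At an unadjusted p under 0.05, 4 of 6 members were higher, against 10.3% of all genes, and the same count of members had both PTS + RS libraries above both RS libraries, against 23.2% of all genes. DESeq2 and limma-voom also called no member past an adjusted p of 0.05, and 3 and 4 members at an unadjusted p under 0.05. The members' median log2 fold change was 0.88, and that of all genes tested was -0.0015.

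**Figure D1:**
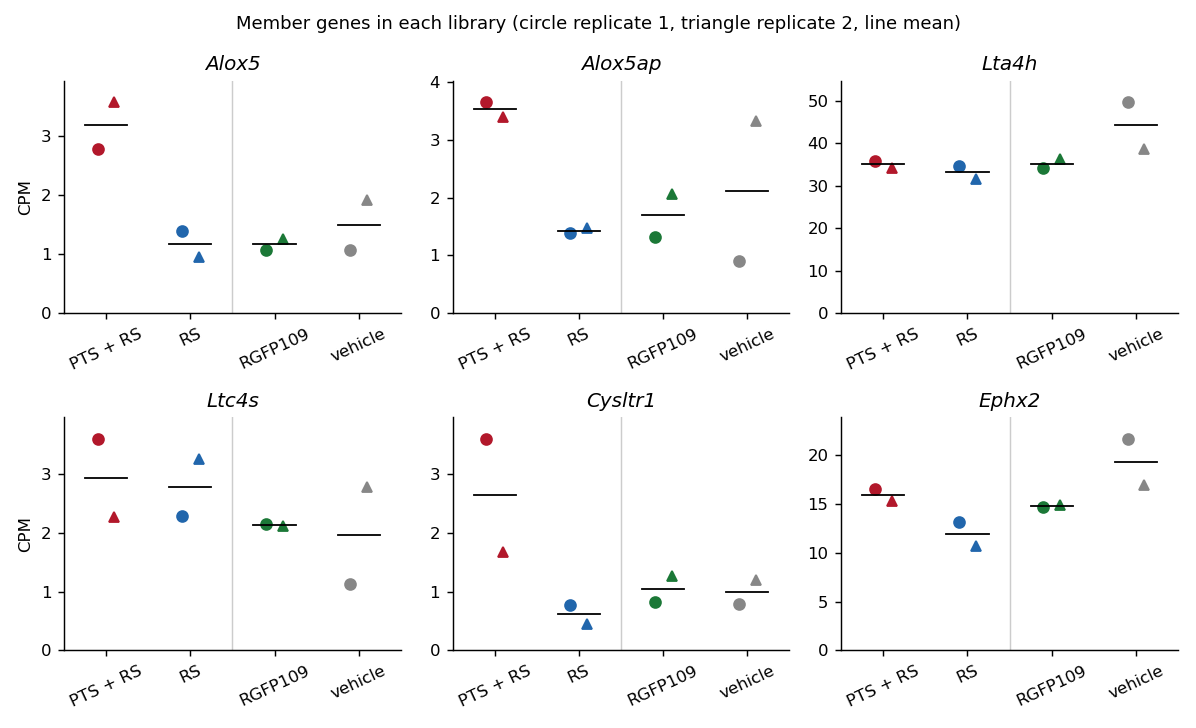
CPM of each member gene (vertical axis, linear and starting at 0) in the 8 libraries, by group, with circles for replicate 1, triangles for replicate 2 and a line at the mean of the 2 libraries; the grey line parts the 2 tables. Alox5, Alox5ap, Cysltr1 and Ephx2 had both PTS + RS libraries above both RS libraries, and the vehicle libraries lay highest for Lta4h and Ephx2.

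Alox5ap, the gene of the protein that presents arachidonic acid to 5-lipoxygenase, had 3.65 and 3.40 CPM in the PTS + RS libraries and 1.39 and 1.47 CPM in the RS libraries. The replicates of each group lay close together and the groups were well apart. The log2 fold change was 1.32 (SE 0.286, n = 2 per group, edgeR adjusted p = 0.0577), a 2.50-fold difference that did not pass. The call turned on the fit: Alox5ap passed with limma-trend on log2(FPKM + 1) (adjusted p = 0.0338) and on log2(FPKM + 0.1) (0.0381).

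Alox5, encoding the lipoxygenase itself, had 2.78 and 3.57 CPM in the PTS + RS libraries against 1.39 and 0.958 CPM in the RS libraries. These levels stood for 48 and 60 counts against 25 and 15 counts. Its log2 fold change was 1.44 (SE 0.343, n = 2 per group, edgeR adjusted p = 0.0749), or 2.72-fold.

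Cysltr1, the receptor gene, showed the widest difference among the members and the least even replicates. Its level was 3.59 and 1.67 CPM in the PTS + RS libraries and 0.778 and 0.447 CPM in the RS libraries. The PTS + RS libraries held 62 counts (exact Poisson 95% interval 47.5 to 79.5) and 28 counts (18.6 to 40.5), so replicate 1 exceeded replicate 2 beyond counting error. RS replicate 2 held 7 counts (2.81 to 14.4). Such intervals cover counting error only. The log2 fold change was 2.10 (SE 0.522, n = 2 per group, edgeR adjusted p = 0.0867), and with the replicate number as a block it was 2.09 with an adjusted p of 0.0254, past the threshold. Without PTS + RS replicate 2 it was 2.54 (adjusted p = 0.00432), and without PTS + RS replicate 1 it was 1.44 and did not pass.

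Without a filter on low counts, which raised the genes tested to 30105, Alox5 (adjusted p = 0.00186), Alox5ap (0.00304) and Cysltr1 (3.68e-05) all passed in edgeR with nearly the same fold changes, 1.44, 1.31 and 2.09 on the log2 scale. Leaving out 1 library also moved calls: Alox5 passed without PTS + RS replicate 1 (adjusted p = 0.0231) and Alox5ap passed without PTS + RS replicate 2 (0.0314). In other fits none of these 3 genes passed. With all 8 libraries in one edgeR fit the adjusted p was 0.350 for Alox5, 0.681 for Alox5ap and 0.294 for Cysltr1. DESeq2 gave adjusted p of 0.139, 0.141 and 0.0522 in the same order. For Cysltr1 that was closer to the threshold than the edgeR value of 0.0867 given above. The genes passed in 2, 4 and 3 of the 14 alternative fits. Their calls thus depended on the processing, whereas their direction was the same in all 14 fits.

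Ephx2, whose product degrades epoxyeicosatrienoic acids, had 16.6 and 15.3 CPM in the PTS + RS libraries and 13.2 and 10.7 CPM in the RS libraries. The groups did not overlap, but the difference was small beside that of the lipoxygenase genes. Its log2 fold change was 0.44 (SE 0.160, n = 2 per group, edgeR adjusted p = 0.218), a 1.35-fold difference, and it passed in none of the 14 alternatives.

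Lta4h, the well-expressed hydrolase gene, had 35.9 and 34.2 CPM in the PTS + RS libraries and 34.6 and 31.7 CPM in the RS libraries. The libraries of the groups interleaved, with a log2 fold change of 0.10 (SE 0.103, n = 2 per group, edgeR adjusted p = 0.664). Ltc4s, the gene of the enzyme that opens the cysteinyl branch, had 3.59 and 2.26 CPM in the PTS + RS libraries and 2.28 and 3.26 CPM in the RS libraries. Here the replicates of each group lay farther apart than the group means, and the log2 fold change was 0.11 (SE 0.342, n = 2 per group, edgeR adjusted p = 0.907). Its sign turned without PTS + RS replicate 1 (-0.26) or RS replicate 1 (-0.13).

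**Figure D2:**
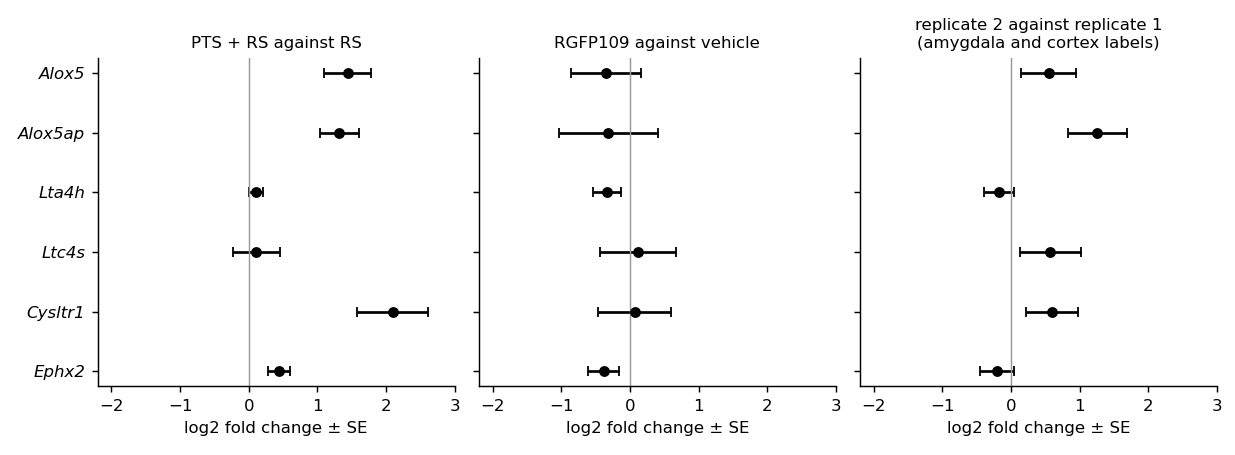
Log2 fold change (horizontal axis) of each member in the 3 comparisons, each point with its edgeR standard error and n = 2 libraries per group. In PTS + RS against RS the points of Alox5, Alox5ap and Cysltr1 lie at 1.44, 1.32 and 2.10, those of Lta4h and Ltc4s near 0, and no member passed the test in any of the 3 panels.

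Markers of several cell types moved with this comparison. All 18 microglia markers were higher past the test (median log2 fold change 1.79), and they summed to 1920 and 1670 CPM in the PTS + RS libraries against 474 and 428 CPM in the RS libraries, 3.98-fold by the group means. The defining microglia gene Tmem119 had 31.7 and 34.6 CPM in the PTS + RS libraries and 15.2 and 17.0 CPM in the RS libraries. Perivascular macrophage markers summed to 169 and 121 CPM against 40.5 and 37.2 CPM, with 2 of 8 tested past the test, Stab1 and Ms4a7. Their defining gene Mrc1 had 12.1 and 3.93 CPM in the PTS + RS libraries and 5.50 and 4.47 CPM in the RS libraries, which overlapped. Of the neutrophil list 1 of 12 genes could be tested, Csf3r, the receptor gene of granulocyte colony-stimulating factor, and it was higher past the test. The list summed to 45.3 and 32.9 CPM against 9 and 8.68 CPM, while the neutrophil gene Ly6g had 0 counts in all 8 libraries and S100a8 at most 3 counts in these 4. Of 12 astrocyte markers 5 were higher past the test, Gfap, S100b, Aqp4, Slc1a3 and Gja1, and the list went from 4930 and 4980 CPM summed in the RS libraries to 8220 and 7050 CPM in the PTS + RS libraries. Mast cell and eosinophil markers, another known source of cysteinyl leukotrienes, summed to 8.35 and 6.61 CPM against 2.78 and 4.21 CPM with 1 of 2 tested past the test, Siglecf, and the mast cell gene Cpa3 had at most 5 counts. These single marker genes, other than Tmem119, Mrc1, Ly6g, S100a8, Aqp4 and Cpa3, were named after their values were seen. Of 12 oligodendrocyte markers 1 was higher past the test, Ugt8a, and of 10 striatal markers 1 was lower, Ppp1r1b. Of 10 choroid plexus markers none passed, but all 10 had negative fold changes, with a median log2 fold change of -1.81. At an unadjusted edgeR p under 0.05, 4 were lower, against 7.55% of all genes. They summed to 2500 and 221 CPM in the PTS + RS libraries and 2770 and 5610 CPM in the RS libraries, so PTS + RS replicate 1 lay close to RS replicate 1. Of 12 endothelial markers none passed, with 12 positive fold changes and a median of 0.24. Of the markers of neurons (12 tested), blood (5), olfactory bulb (6), cerebral cortex (10) and amygdala (10) none passed, and of the monocyte and lymphocyte list none had enough counts.

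Relative to the microglia markers, the members did not all keep the same level. Per 1000 CPM of the microglia list, Cysltr1 amounted to 1.87 and 0.997 CPM in the PTS + RS libraries and 1.64 and 1.04 CPM in the RS libraries, which overlapped. Alox5 amounted to 1.45 and 2.14 CPM against 2.93 and 2.24 CPM, and Alox5ap to 1.90 and 2.03 CPM against 2.93 and 3.43 CPM, so that both were lower in the PTS + RS libraries on this scale. Lta4h amounted to 18.7 and 20.4 CPM against 73.0 and 73.9 CPM. The direction on such a scale depends on the markers chosen. The microglia gene P2ry12 had 51.6 and 45.5 CPM in the PTS + RS libraries and 26.7 and 21.8 CPM in the RS libraries. Both P2ry12 and Tmem119 rose less than the 3.98-fold sum of the list. For Ephx2 the values per 1000 CPM of the astrocyte list were 2.02 and 2.17 CPM in the PTS + RS libraries and 2.67 and 2.15 CPM in the RS libraries. In these bulk libraries more cells of a type and more RNA per cell cannot be told apart, and the part of each cell type in the members' levels was not tested.

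**Figure D3:**
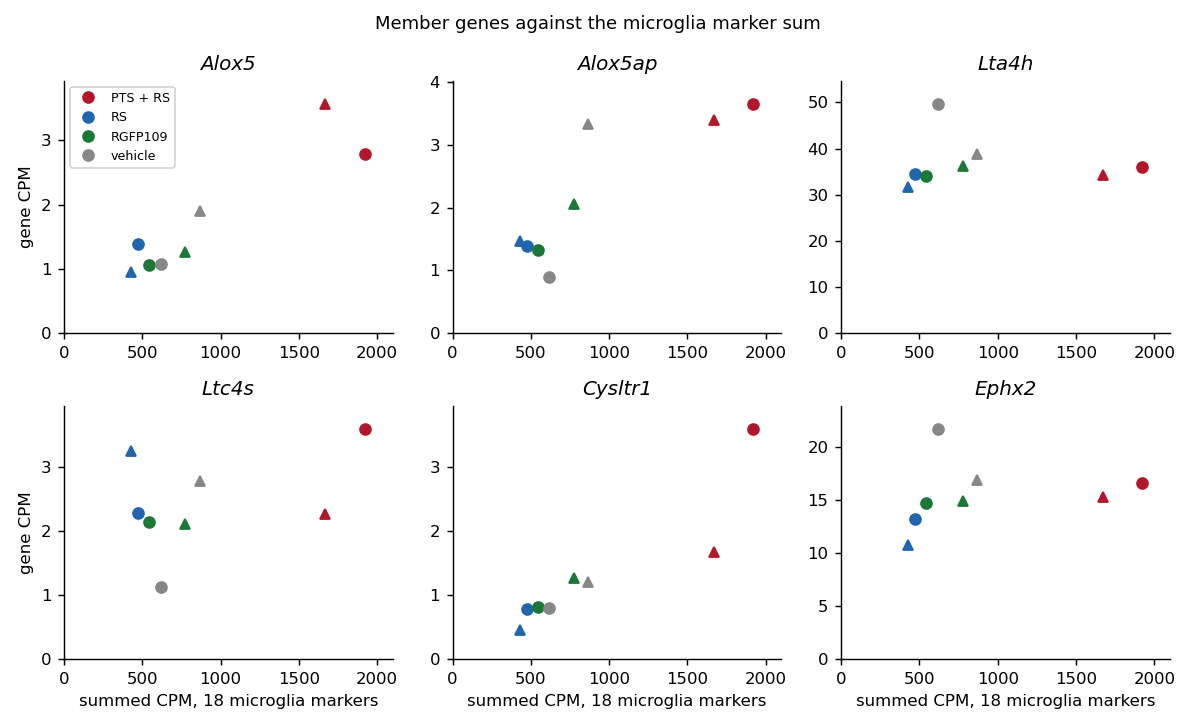
CPM of each member gene (vertical axis, linear) against the summed CPM of 18 microglia markers (horizontal axis) in the 8 libraries, with colours for groups, circles for replicate 1 and triangles for replicate 2. The PTS + RS libraries stand at 1670 and 1920 CPM of the marker sum, apart from the other 6 at 428 to 867 CPM, and Lta4h lies at 31.7 to 49.8 CPM across the whole range.

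The neighbouring genes of the pathway, 44 genes of phospholipid release, other lipoxygenases, receptors, conjugation, breakdown and epoxide metabolism, gave a mixed picture. Of 43 listed in the table, 27 could be tested, 2 were higher past the test and none was lower, against 2.96% and 0.586% of all genes. The count was 9 without PTS + RS replicate 2, 8 without a filter, 4 without PTS + RS replicate 1, 3 with DESeq2, 1 without RS replicate 2 and 0 in a shared fit of all 8 libraries. At an unadjusted p under 0.05, 9 were higher and 2 were lower, against 10.3% and 7.55% of all genes. Their median log2 fold change was 0.06 beside -0.0015 over all genes tested.

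Both genes that rose encode G protein-coupled receptors of lipid or peptide mediators. Gpr17, a receptor related to the cysteinyl leukotriene receptors and known from oligodendrocyte precursors, had 82.9 and 96.5 CPM in the PTS + RS libraries and 51.1 and 55.9 CPM in the RS libraries. It rose by a log2 fold change of 0.77 (SE 0.10, n = 2 per group, edgeR adjusted p = 0.00916), or 1.70-fold. Cmklr1, the chemerin receptor, which has also been described as a receptor of resolvin E1, had 7.88 and 6.31 CPM against 2.50 and 2.36 CPM. It rose by 1.56 on the log2 scale (SE 0.236, n = 2 per group, edgeR adjusted p = 0.0166), or 2.96-fold. When all 8 libraries shared one fit, no gene of the genome was past the test in this comparison, and the adjusted p was 0.208 for Gpr17 and 0.209 for Cmklr1. Cmklr1 also just missed the threshold without RS replicate 2 (adjusted p = 0.0502).

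Among the neighbours with the highest FPKM, the microsomal glutathione S-transferase gene Mgst3 had a median of 43.0 FPKM over 8 libraries and the gamma-glutamyltransferase family gene Ggt7 40.7 FPKM. Mgst3 had 28.5 and 30.9 CPM in the PTS + RS libraries, below 45.6 and 36.3 CPM in the RS libraries (log2 fold change -0.45, SE 0.133, edgeR adjusted p = 0.139). Ggt7 had 105 and 121 CPM against 135 and 134 CPM (log2 fold change -0.23, SE 0.088, edgeR adjusted p = 0.236). Neither passed here. Mgst3 passed as lower without a filter (adjusted p = 0.00849) and without PTS + RS replicate 2 (0.0365), and Ggt7 without PTS + RS replicate 2 (0.00793). The other epoxide hydrolase genes Ephx4 and Ephx1 had log2 fold changes of 0.06 (SE 0.104) and 0.0058 (SE 0.171), and Gpr37, a brain receptor gene, had -0.14 (SE 0.080), with adjusted p of 0.804, 0.993 and 0.411.

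With the replicate block 4 neighbours were past the test, among them Mgst1, a microsomal glutathione S-transferase gene, at 0.91 (adjusted p = 0.0448) and the epoxygenase gene Cyp2j9 at 0.65 (0.0391). Without the block they had 0.92 (adjusted p = 0.0867) and 0.66 (0.0614). These genes, and the receptor genes that follow, were picked out after their values were seen. Of the other leukotriene receptor genes, Ltb4r1, which encodes the main receptor of leukotriene B4, had 0 to 9 counts in a library and was not tested. Cysltr2 had 9 to 15 counts, at 0.812 and 0.834 CPM in the PTS + RS libraries and 0.834 and 0.830 CPM in the RS libraries, with a log2 fold change of 0.0057 (SE 0.429). Changes of these receptor genes were not detectable at this depth.

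**Figure D4:**
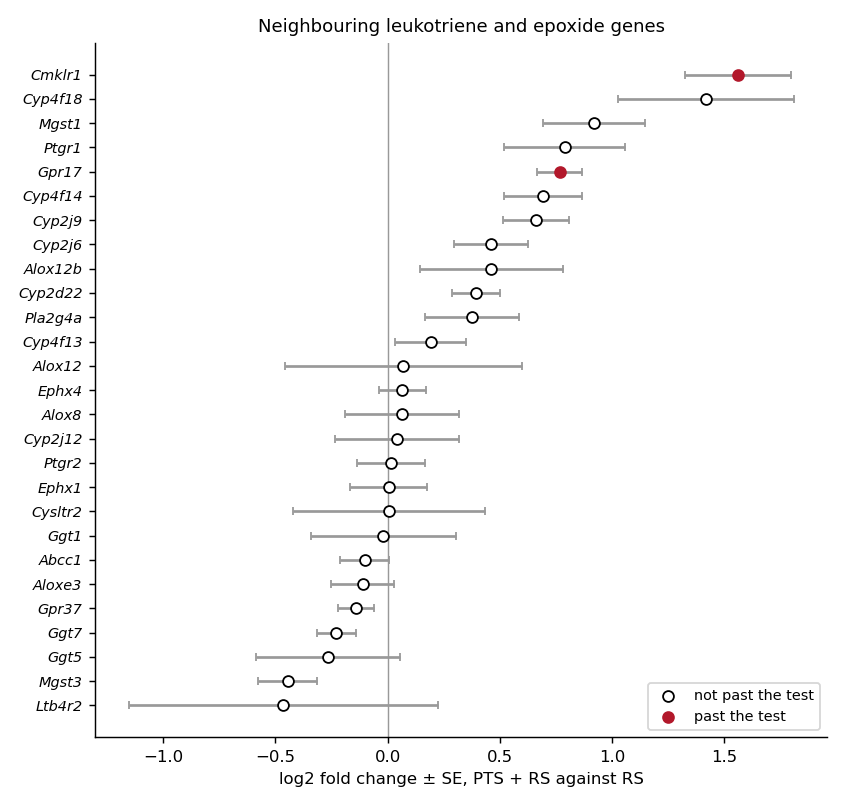
Log2 fold change of PTS + RS against RS (horizontal axis) with its edgeR standard error for the 27 neighbouring genes tested, ordered by value, n = 2 libraries per group; filled points passed the test. Gpr17 at 0.77 and Cmklr1 at 1.56 are the filled points, and the others scatter on both sides of 0.

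To ask what RGFP109 changed in PTS + RS mice, the RGFP109 libraries were compared with the vehicle libraries. None of the 6 members passed the test and none had an unadjusted p under 0.05. No gene at all passed in edgeR, 0% of 17565 tested, with 206 genes at an unadjusted p under 0.05 (1.17%), and DESeq2 and limma-voom called none either. The replicates of these groups carry different tissue labels, and the biological coefficient of variation was 32.1% here against 11.4% in the stroke comparison. With the replicate number, and with it the tissue label, as a block, no gene passed either.

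Lta4h had 34.1 and 36.3 CPM in the RGFP109 libraries and 49.8 and 38.8 CPM in the vehicle libraries. Ephx2 had 14.7 and 14.9 CPM against 21.7 and 16.9 CPM. In both genes both RGFP109 libraries lay below both vehicle libraries, as did 14.2% of all genes. The log2 fold changes were -0.33 (SE 0.203, n = 2 per group, edgeR adjusted p = 0.9997) for Lta4h and -0.38 (SE 0.223, same adjusted p) for Ephx2. The high vehicle value of both genes was in replicate 1, the library with olfactory bulb markers, which alone held S100a5, an olfactory bulb gene, at 1131 counts against 0 in every other library. Without that library the log2 fold changes were -0.14 for Lta4h and -0.19 for Ephx2.

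Alox5ap and Ltc4s differed more between the vehicle replicates than between the groups. Alox5ap had 1.32 and 2.06 CPM in the RGFP109 libraries and 0.904 and 3.33 CPM in the vehicle libraries. The value of vehicle replicate 2, labelled amygdala, came close to the 3.40 and 3.65 CPM of the PTS + RS libraries. That of vehicle replicate 1, labelled cortex as the PTS + RS libraries are, lay below the 1.39 and 1.47 CPM of the RS libraries. The PTS + RS and RS libraries belong to the other table. Ltc4s had 2.14 and 2.11 CPM in the RGFP109 libraries and 1.13 and 2.78 CPM in the vehicle libraries. The log2 fold changes were -0.31 (SE 0.722) for Alox5ap and 0.12 (SE 0.555) for Ltc4s, each smaller than its error.

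Alox5 had 1.07 and 1.26 CPM in the RGFP109 libraries and 1.07 and 1.91 CPM in the vehicle libraries, with a log2 fold change of -0.35 (SE 0.508). Cysltr1 had 0.818 and 1.26 CPM in the RGFP109 libraries and 0.791 and 1.20 CPM in the vehicle libraries, with a log2 fold change of 0.07 (SE 0.532). For both genes the groups overlapped, and an effect of the inhibitor was not detectable with these libraries. Of the neighbouring genes 26 were tested and none passed, with 1 past the test without vehicle replicate 2. Choroid plexus markers, at 2180 and 222 CPM in the RGFP109 libraries and 181 and 200 CPM in the vehicle libraries, were far higher in RGFP109 replicate 1 alone, and their part was not tested.

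**Figure D5:**
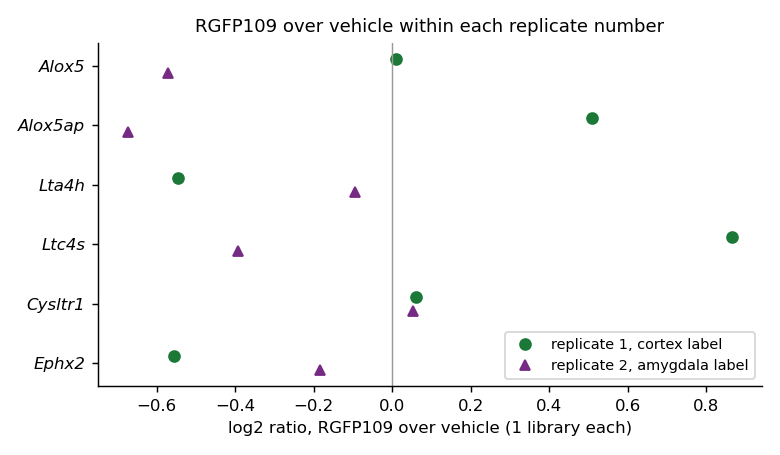
Log2 ratio of RGFP109 over vehicle (horizontal axis, prior count of 2) within each replicate number for the 6 members; every point compares 1 library with 1 library and has no error. The replicates lie on opposite sides of 0 for Alox5ap and Ltc4s, at 0.51 and -0.67 and at 0.87 and -0.39, and on the same side for Lta4h, Cysltr1 and Ephx2.

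Within this table the libraries labelled amygdala (replicate 2) were also set against those labelled cortex (replicate 1), where the tissue label and the replicate number cannot be told apart. No gene passed the test in edgeR, with 1970 of 17565 genes at an unadjusted p under 0.05 (11.2%), and the smallest adjusted p was 0.0596. DESeq2 called 314 genes higher and 102 lower. No member passed with either tool. Alox5, Alox5ap and Cysltr1 had both replicate 2 libraries above both replicate 1 libraries, as had 22.7% of all genes. Alox5ap had the lowest p, with a log2 fold change of 1.26 (SE 0.434, n = 2 per label, edgeR adjusted p = 0.415), and it passed without RGFP109 replicate 1, as did Lta4h, at 1.55 (adjusted p = 0.0105) and -0.42 (0.0344). For Lta4h and Ephx2 the sign rested on the library with olfactory bulb markers: it was -0.17 and -0.21 with all libraries and 0.14 and 0.11 without vehicle replicate 1.

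Markers of myeloid cells, blood, lymphocytes and oligodendrocytes differed along the same line. The microglia list summed to 776 and 867 CPM in the replicate 2 libraries of RGFP109 and vehicle and to 545 and 617 CPM in the replicate 1 libraries. Perivascular macrophage markers summed to 78.2 and 113 CPM against 62.2 and 55.0 CPM. Blood markers summed to 127 and 439 CPM against 1.64 and 12.8 CPM, and the neutrophil list to 18.3 and 18.4 CPM against 9.87 and 8.02 CPM. The monocyte and lymphocyte list summed to 15.6 and 15.1 CPM against 2.64 and 2.03 CPM. Oligodendrocyte markers summed to 4590 and 5120 CPM against 3230 and 3250 CPM, with 9 of 12 not overlapping and higher. Other lists went the opposite way. Endothelial markers summed to 369 and 356 CPM against 406 and 443 CPM, with 7 of 12 not overlapping and lower. All 9 choroid plexus markers tested had negative fold changes (median log2 fold change -2.96). The part of these markers in the members' levels was not tested.

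Over the 4 groups, each member had its own order. Alox5 was highest in PTS + RS, at a mean of 3.18 ± 0.56 CPM (SD, n = 2), followed by vehicle, RS and RGFP109, whose libraries overlapped from one to the next. Alox5ap was highest in PTS + RS at 3.52 ± 0.18 CPM, and the vehicle, RGFP109 and RS libraries again overlapped in turn. Cysltr1 was highest in PTS + RS at 2.63 ± 1.36 CPM and lowest in RS at 0.612 ± 0.234 CPM, with RGFP109 and vehicle overlapping in between. Lta4h and Ephx2 were instead highest in vehicle, at 44.3 ± 7.8 CPM and 19.3 ± 3.4 CPM. Ltc4s ran from 2.93 ± 0.94 CPM in PTS + RS to 1.96 ± 1.17 CPM in vehicle. PTS + RS and vehicle mice share stroke and restraint but were deposited in separate tables, and whether they were sequenced together is not given in the sources used here, so levels between the tables are set side by side with no test.

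Over the 8 libraries Pearson's r of log2 CPM was 0.86 between Alox5 and Alox5ap, 0.81 between Alox5 and Cysltr1 and 0.78 between Alox5ap and Cysltr1. It was 0.89 between Lta4h and Ephx2. Between these sets of genes r was lower and rested on vehicle replicate 1: it was -0.33 between Lta4h and Alox5ap and 0.58 without that library, 0.0049 and 0.73 between Ephx2 and Alox5ap, 0.39 and 0.79 between Ephx2 and Cysltr1, 0.21 and 0.64 between Ephx2 and Alox5, and 0.02 and 0.52 between Lta4h and Cysltr1. Between Lta4h and Alox5 r was -0.15, and 0.35 without that library, the weakest of these pairs after its removal. These values describe 8 libraries in which groups, marker sums and depth differ together. Among 16946 other genes tested in both tables, those most like Alox5ap were Capg (r = 0.99), Hk3 (0.98) and Fblim1 (0.97). Those most like Alox5 were Ubl7 (0.98), Rpl29 (0.96) and Rplp0 (0.96). For Cysltr1 they were Pros1 (0.99), Trim30d (0.98) and Cript (0.98), for Lta4h Hs3st3a1, Fmo1 and Shisa3 (each 0.99), for Ltc4s N6amt1, Ccna1 and Wdr78 (each 0.95) and for Ephx2 Cse1l and Chst10 (each 0.97).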

How the data were processed

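RNA-seq was analysed in 8 libraries. The authors aligned reads to GRCm38 with STAR 2.4.0 and made counts per gene with HTSeq 0.6.1. The deposited FPKM are per kilobase of the listed gene length. The labels name a directional kit and the study's methods another kit. Members were matched by gene name, and rows of the tables by position. Counts were tested with edgeR 4.0.16 (filterByExpr, TMM within each table, quasi-likelihood test, Benjamini-Hochberg over all genes tested), with limma 3.58.1 and DESeq2 1.42.0 as alternatives. Printed CPM use TMM over all 8 libraries and were drawn with matplotlib; correlations and log2 ratios add a prior count of 2. A gene was past the test at an adjusted p under 0.05, with no limit on its fold change. On simulated counts the test recovered the sign and size of large known changes in well-counted genes, and smaller changes were not simulated. The share of false calls was above the nominal one for PTS + RS against RS and for replicate 2 against replicate 1.

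The authors' columns of group means, fold changes and p-values, and 8 further columns of per-sample values in the RGFP109 table, were not used. The members, the 44 neighbours and 15 marker lists were chosen with earlier results of these data known. Neighbours were named if past the test in any comparison or among the 5 with the highest median FPKM. For likeness, the 3 most similar genes per member were named, except 1 that is not reported here, and of the marker lists sums and single defining markers. Same-numbered replicates deviated together with r = 0.04 in the PTS + RS and RS libraries and 0.30 in the RGFP109 and vehicle libraries, where the number shares a tissue label. Depth was 15902013 to 21712033 counts, and 1 count was worth 0.0468 to 0.0638 CPM. Alternatives covered the scaling, filter, tool, pseudocount, block, shared fit and each left-out library.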

Additional observations from a re-analysis of the deposited data

Results flagged for a closer look

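The log2 ratio of RGFP109 over vehicle turned sign between replicate 1, labelled cortex, and replicate 2, labelled amygdala, for 3 members. For Alox5ap it was 0.51 in replicate 1 and -0.67 in replicate 2, a difference of -1.18. For Ltc4s it was 0.87 and -0.39, a difference of -1.26. For Alox5 it was 0.01 and -0.57, a difference of -0.58, with the first ratio close to 0. Each ratio compares 1 library with 1 library, so the difference was not tested. In each case the vehicle libraries differed more from each other than the RGFP109 libraries did: Alox5ap was higher in vehicle replicate 2 than in vehicle replicate 1 by 1.76 on the log2 scale, and by 0.57 between the RGFP109 libraries.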

How the results depend on the processing

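In PTS + RS against RS, no member passed as reported, and 3 did without a filter, 1 with limma-trend on log2(FPKM + 1), 1 on log2(FPKM + 0.1) and 1 with the replicate block. Genes called higher numbered 521, and 1119 without a filter, 304 and 314 with limma-trend at the larger and smaller pseudocount, and 0 with all 8 libraries in one fit. Genes called lower numbered 103, and 188 with DESeq2, 716 without a filter, 68 with limma-trend on log2(FPKM + 1), 228 with the replicate block and 0 in the shared fit. The sign of Ephx1 turned without a filter (-0.0011) and in the shared fit (-0.018). Leaving out each library in turn gave 0 to 2 members past the test, 339 to 1413 genes higher and 32 to 1278 lower, with log2 fold changes of -0.26 to 0.41 for Ltc4s, -0.19 to 0.21 for Ephx1 and -0.0039 to 0.13 for Ephx4. Same-numbered PTS + RS and RS libraries share only a number, and beyond the calls named above the block changed no other call of a member.

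In RGFP109 against vehicle, members past the test stayed at 0 in all alternatives, the replicate block included. Leaving out each library gave 0 to 15 genes higher and 0 to 78 lower, the upper values without vehicle replicate 2. The log2 fold changes then ran from -0.70 to 0.13 for Alox5, -0.96 to 0.91 for Alox5ap, -0.39 to 0.91 for Ltc4s, -0.27 to 0.41 for Cysltr1, -0.50 to 0.14 for Cmklr1, -0.019 to 0.19 for Ggt7 and -0.20 to 1.22 for Ephx4.

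In replicate 2 against replicate 1, 0 genes were higher and 0 lower, but 1 was higher with library totals, 13 without a filter, 1 with limma-trend at either pseudocount, and 314 higher and 102 lower with DESeq2. With library totals Mgst3 (-0.0081) and Ephx1 (-0.019) turned sign. Leaving out each library gave 0 to 2 members past the test, 0 to 2831 genes higher and 0 to 2552 lower, the upper values without RGFP109 replicate 1. Without vehicle replicate 1, 1540 were higher and 1025 lower. The ranges were -0.42 to 0.14 for Lta4h, -0.46 to 0.11 for Ephx2, -0.16 to 0.20 for Ephx1, -0.081 to 0.16 for Ggt7, -0.27 to 0.24 for Gpr37 and -0.25 to 0.39 for Mgst3. The cause of these moves was not tested, except that unfiltered fits and left-out libraries change the genes or samples that enter.

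With 2 libraries per group, 7 to 63 counts for Alox5, Alox5ap, Ltc4s and Cysltr1, and a lone library assumed to vary like the others when one was left out, small differences of these genes were beyond reach. The Lta4h and Ephx2 levels were better sampled, and in the RGFP109 table they were limited by the spread between libraries.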
